A study of Mus musculus with 9 samples.

Results

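The mouse genes named Zfp and a number encode proteins with zinc finger domains, mostly of the DNA-binding C2H2 kind, and 339 of them were measured among 19938 named genes on 9 microarrays. Of these, 152 were taken as expressed, because their mean reached 6 on the log2 scale in at least 1 of the 3 groups of cells. Zfp42 and Zfp281, which are used as pluripotency genes, were left out by name, and a gene with several array probe sets was represented by the one with the highest mean. The members were therefore selected on measured levels: 94 reached the level in every group and 58 in some groups only. A gene of the second kind tends to differ between groups by the way it was chosen, so counts below are read first over the 339 genes, which were chosen by name alone. Just inside the level lay Zfp324, Zfp738 and Zfp408, with highest group means of 6.01, 6.05 and 6.05, and just outside lay Zfp707, Zfp819 and Zfp341 with 6.00, 5.99 and 5.98; the first of these 3 was below 6 before rounding.

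The study set adult cardiac fibroblasts, dedifferentiated cardiac fibroblasts and embryonic stem (ES) cells side by side, with 3 arrays a group. All samples carried the strain label C57BL/6. The dedifferentiated cells had been made from cardiac fibroblasts by a protein-based treatment, per the labels, and the ES cells were labelled C57. ES cells also appear in the source label of the fibroblast samples, which were grouped by their titles. No label says whether the arrays of a group came from separate animals, cultures or clones, so the p-values below reflect only how these samples scattered, possibly for technical reasons. With 3 arrays a group, the number of arrays limits the precision.

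Many Zfp proteins carry a KRAB domain, which recruits the corepressor Trim28 and, through it, the histone methyltransferase Setdb1, so that heterochromatin forms where the fingers bind. Their best known targets are endogenous retroviruses and other retroelements, and some guard imprinted regions; this silencing is prominent in ES cells. KRAB zinc finger genes have multiplied in tandem and stand in clusters of related copies, such as those on distal chromosome 4, chromosome 7 and chromosome 13. Members outside the KRAB class do other work, from mRNA decay to spindle assembly.

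The groups carried the markers of their labels. The mean of 9 pluripotency markers was 3.97 to 4.27 on the fibroblast arrays, 10.33 to 10.38 on the dedifferentiated arrays and 10.22 to 10.40 on the ES arrays. The mean of 10 fibroblast markers, among them Col1a1, Dcn and Tcf21, was 10.69 to 10.81, 5.55 to 5.64 and 5.17 to 5.23 in the same order. Of these markers 10, 5 and 3 stood at the level of 6. Pdgfra averaged 8.96 in dedifferentiated cells, and Pdgfra (1.37) and Dcn (1.20) were called higher there than in ES cells. Other cell types were followed as well. The 5 epithelial markers, which ES cells also express, averaged 4.65 to 4.79 on fibroblast arrays, 10.24 to 10.28 on dedifferentiated arrays and 10.40 to 10.50 on ES arrays. The 8 macrophage and leukocyte markers averaged 5.80 to 6.00, 4.29 to 4.32 and 4.43 to 4.52, with 3, 1 and 1 of them at the level of 6. Lyz2 was the brightest of them in fibroblasts. Cd68 went the other way, at 6.97, 8.02 and 8.71, and was the marker at the level outside fibroblasts. Ptprc, Csf1r and Adgre1 stayed below 6 in every group. The 7 endothelial markers averaged 4.73 to 4.92, 5.76 to 5.88 and 5.17 to 5.31, with 1, 3 and 2 at the level. None of the 7 cardiomyocyte markers reached the level in any group. Xist averaged 7.31 on the fibroblast arrays, 3.25 on the dedifferentiated arrays and 3.15 on the ES arrays. The Y-linked Eif2s3y averaged 3.55, 8.09 and 7.76 in the same order. By these genes the fibroblasts read as female and the other groups as male. Sex and donor therefore go along with every comparison with fibroblasts and cannot be told apart from cell group. The part of these other cell types and of sex in the results was not tested, beyond leaving out the 8 X-linked Zfp genes. That kept the count of Zfp genes higher in dedifferentiated cells at 42 and lowered the count higher in ES cells from 44 to 43. In such bulk RNA, fewer cells of a type and less RNA per cell cannot be told apart.

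More Zfp genes were higher than lower in both pluripotent groups. A gene was called where its limma difference was at least 1 log2 unit, which is 2-fold, at a Benjamini-Hochberg adjusted p below 0.05 over all 19938 genes. Of the 339 measured Zfp genes, 42 (12.4%) rose and 6 (1.77%) fell in dedifferentiated cells against fibroblasts, where 8.79% of all genes rose and 10.1% fell. In ES cells against fibroblasts 44 (12.98%) rose and 10 (2.95%) fell, beside 8.85% and 10.4% of all genes. Both comparisons use the same 3 fibroblast arrays and are not independent of each other. Between dedifferentiated and ES cells 3 Zfp genes (0.885%) were higher in dedifferentiated cells and 0 were lower, beside 1.01% and 0.547% of all genes. Without the minimum size, at an adjusted p below 0.05 alone, those counts were 57 and 24. No share of all genes under that rule is given beside them, so they are not read as a trait of the family.

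The 152 expressed members gave 37 rises (24.3%) and 4 falls (2.63%) in dedifferentiated cells, beside 16.6% and 18.8% of the 9454 other genes that reached the level. They gave 39 rises (25.7%) and 8 falls (5.26%) in ES cells, beside 16.6% and 19.3% of those other genes. For dedifferentiated against ES cells the counts were 2 (1.32%) and 0, beside 1.95% and 1.07%. Of the 94 members that stood at the level in every group, 17 (18.1%) rose and 1 (1.06%) fell in dedifferentiated cells, beside 12.7% and 12.2% of the 6871 other genes at the level in every group. In ES cells 17 (18.1%) rose and 4 (4.26%) fell, beside 11.8% and 12.9% of those genes.

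The median difference over the 339 genes was 0.14 log2 units for dedifferentiated cells and 0.12 for ES cells, each minus fibroblasts, beside 0.01 and 0.02 over all genes. Over the 152 expressed members it was 0.50 and 0.39, beside 0.07 and 0.07 over the other genes at the level. Aligning the arrays on the median of all probe sets instead lowered each difference from fibroblasts by 0.12. That is nearly the whole median of the 339 genes. The alignment moves every gene alike, so the median over all genes fell by as much and the gap between these medians stayed. The counts of Zfp rises then were 37 and 35, and of falls 7 and 11, with no share of all genes given under this setting. In fibroblasts 104 of the 339 genes (30.7%) reached the level, against 138 (40.7%) in dedifferentiated cells and 139 (41.0%) in ES cells, while the share over all genes was 41.7%, 41.0% and 41.6%. The brightest Zfp signals in fibroblasts were those of Zfp330, Zfp809 and Zfp207, at 9.25, 9.06 and 9.01; in dedifferentiated cells they were Zfp706, Zfp57 and Zfp330 at 10.27, 9.93 and 9.84, and in ES cells Zfp57, Zfp330 and Zfp706 at 10.68, 10.09 and 10.09. Signals of different genes depend on their probes, so these set no order of transcript abundance.

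**Figure D1:**
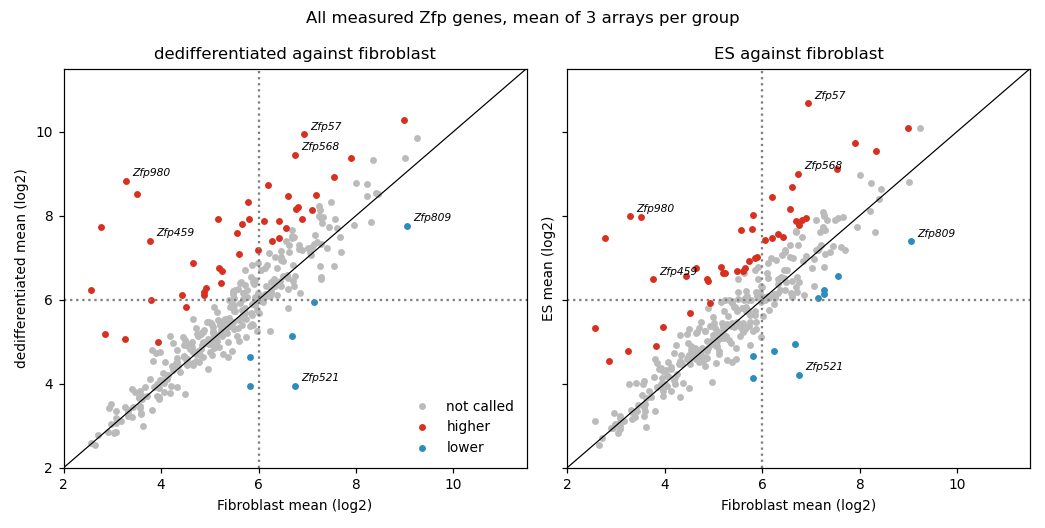
Mean log2 level of each of the 339 measured Zfp genes (3 arrays a group), with fibroblasts on the x axis and dedifferentiated cells (left) or ES cells (right) on the y axis; red points rose, blue points fell, grey points were not called, the dotted lines mark the level of 6 and the diagonal marks equal means. Zfp980 and Zfp459 lie far above the diagonal, while Zfp809 and Zfp521 lie below it in both panels.

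**Figure D2:**
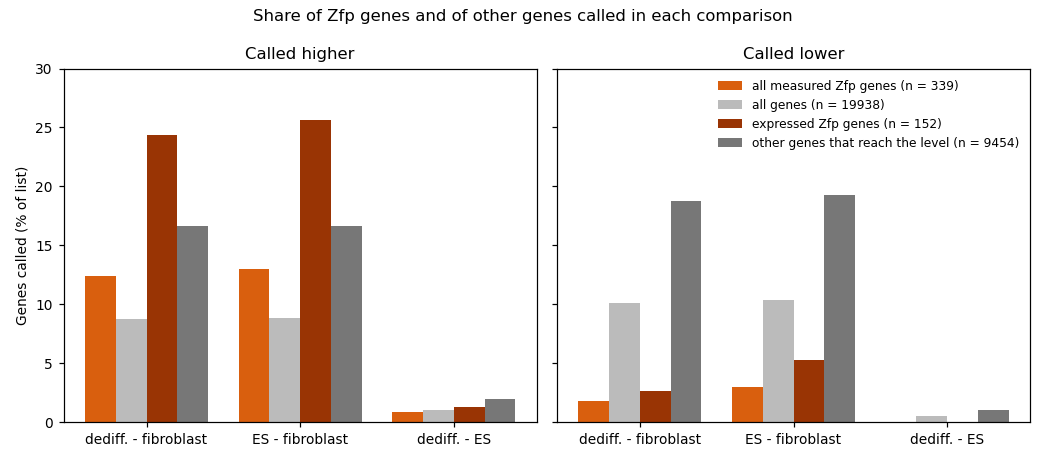
Share of genes called higher (left) and lower (right) in each comparison, in percent of 339 measured Zfp genes, 19938 genes in all, 152 expressed Zfp genes and 9454 other genes at the level; bars carry no error because they are counts. For falls the Zfp bars (1.77% to 5.26% against fibroblasts) stand below those of the other genes (10.1% to 19.3%).

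Several of the strongest rises lay on distal chromosome 4, in a KRAB cluster whose proteins are known to repress endogenous retroviruses. Zfp980 (chr4:145670697-145704437), Zfp600 (chr4:146156827-146198756) and Zfp979 (chr4:147611936-147642508, all GRCm38.p6) were dim in fibroblasts and far brighter in both pluripotent groups. Windows from 250 bases before to 50 bases after an annotated start are shown for these 3 genes, for their neighbour Zfp985 and for Zfp933. Zfp933 stands at the end of the cluster and was not called. The windows are shown because the first 4 are near copies of each other and the last is not. The Zfp933 window, the most upstream one available, lies inside the span of that gene, which ends at chr4:147849126. The letters are RefSeq's for GRCm38.p6, 5′ to 3′ on the gene's strand; capitals mark GGGCGG (the core of an Sp or Klf site) and CCAAT on either strand, which overlap where both are in capitals. They lie at chr4:145670447-145670746 (plus strand), chr4:147642459-147642758 (minus strand), chr4:146156577-146156876 (plus strand), chr4:147553027-147553326 (plus strand) and chr4:147848369-147848668 (minus strand), in the order printed.
Zfp980: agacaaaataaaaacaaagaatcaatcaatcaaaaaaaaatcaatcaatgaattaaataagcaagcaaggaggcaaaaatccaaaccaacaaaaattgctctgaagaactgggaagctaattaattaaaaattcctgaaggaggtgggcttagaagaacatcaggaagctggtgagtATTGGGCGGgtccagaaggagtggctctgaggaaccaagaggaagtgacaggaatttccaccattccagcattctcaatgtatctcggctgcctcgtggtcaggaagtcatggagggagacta
Zfp979: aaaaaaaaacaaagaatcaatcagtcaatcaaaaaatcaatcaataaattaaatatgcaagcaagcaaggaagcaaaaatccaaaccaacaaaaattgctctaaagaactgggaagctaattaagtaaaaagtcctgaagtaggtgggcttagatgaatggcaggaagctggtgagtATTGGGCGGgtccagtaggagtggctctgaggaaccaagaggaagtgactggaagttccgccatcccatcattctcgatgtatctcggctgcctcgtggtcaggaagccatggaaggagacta
Zfp600: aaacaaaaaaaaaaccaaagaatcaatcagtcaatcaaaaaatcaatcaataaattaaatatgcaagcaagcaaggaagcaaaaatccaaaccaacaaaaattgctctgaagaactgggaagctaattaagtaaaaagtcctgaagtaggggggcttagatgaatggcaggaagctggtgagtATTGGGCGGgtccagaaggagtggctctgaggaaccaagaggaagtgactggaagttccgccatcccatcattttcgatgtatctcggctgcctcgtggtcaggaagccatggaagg
Zfp985: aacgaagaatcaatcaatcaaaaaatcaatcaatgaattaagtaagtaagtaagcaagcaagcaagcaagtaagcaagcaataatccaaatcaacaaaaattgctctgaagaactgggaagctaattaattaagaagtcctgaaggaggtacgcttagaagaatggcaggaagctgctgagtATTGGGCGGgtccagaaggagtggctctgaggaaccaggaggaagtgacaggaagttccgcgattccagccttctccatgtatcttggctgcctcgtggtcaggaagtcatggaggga
Zfp933: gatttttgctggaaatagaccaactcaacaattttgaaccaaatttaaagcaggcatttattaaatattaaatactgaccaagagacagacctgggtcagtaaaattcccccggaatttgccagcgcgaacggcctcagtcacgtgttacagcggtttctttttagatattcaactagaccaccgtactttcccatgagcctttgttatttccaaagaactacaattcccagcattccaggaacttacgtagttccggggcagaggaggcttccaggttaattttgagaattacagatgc

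In pairwise alignment the first 4 windows were 81.7% to 94.77% identical over their 6 pairs, with Zfp979 and Zfp600 the closest, while Zfp933 was 49.57% to 51.03% identical to them, close to the 48.33% to 53.41% found among genes of the chromosome 7 run described below. All 4 hold a single run in which CCAAT, read on the opposite strand, overlaps GGGCGG, and the Zfp933 window holds neither motif. GGGCGG occurs on either strand in 35.9%, CCAAT in 38.0% and both in 13.3% of 27025 such windows, 1 per gene, and in 49.9%, 38.4% and 18.7% of the 15563 windows of genes on the array. In the 279 measured Zfp genes with a window the shares were 46.2%, 45.2% and 20.4%, and in the 121 expressed ones 52.1%, 46.3% and 24.0%. The 4 windows hold 3, 5, 5 and 6 CpG dinucleotides in the order printed and that of Zfp933 holds 9, beside a median of 15 over the measured Zfp windows. A match describes the letters and does not show a bound site.

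Zfp980 read 3.25, 2.97 and 3.63 on the fibroblast arrays, 9.26, 8.82 and 8.42 on the dedifferentiated arrays and 7.45, 8.28 and 8.22 on the ES arrays. Every pluripotent array was far above every fibroblast array, and the dedifferentiated arrays were also above the ES arrays. The limma difference from fibroblasts was 5.55 (95% interval 4.98 to 6.11, adjusted p = 5.96e-09) in dedifferentiated cells and 4.70 (95% interval 4.13 to 5.26, adjusted p = 2.29e-08) in ES cells. Zfp979 read 3.78, 3.66 and 3.09 on the fibroblast arrays, 8.79, 8.34 and 8.40 on the dedifferentiated arrays and 7.60, 8.27 and 8.04 on the ES arrays, again with no overlap between fibroblasts and the rest. Its differences were 4.999 (95% interval 4.55 to 5.45, adjusted p = 2.31e-09) and 4.46 (95% interval 4.01 to 4.92, adjusted p = 5.69e-09).

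Zfp600 was dimmer throughout, at 2.34, 2.63 and 2.74 on the fibroblast arrays, 6.51, 6.09 and 6.08 on the dedifferentiated arrays and 5.21, 5.54 and 5.20 on the ES arrays. It stood highest in dedifferentiated cells, and only that group reached the level of 6. Its rises were 3.66 (95% interval 3.34 to 3.98, adjusted p = 1.66e-09) and 2.75 (95% interval 2.43 to 3.07, adjusted p = 1.78e-08). Zfp991, the fourth expressed gene of the region, was already bright in fibroblasts at 8.18, 7.77 and 7.77, and read 9.58, 9.27 and 9.27 in dedifferentiated cells and 9.39, 10.00 and 9.79 in ES cells. It rose by 1.47 and 1.82 log2 units, with no overlap between fibroblasts and either group.

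The region of Zfp genes that holds these and ends with Zfp933 was delimited after their values were seen and spans 2.34 Mb (chr4:145510759-147849126), where the gene table lists 16 Zfp genes, of which 7 had a probe set of their own. Of those 7, 4 rose in dedifferentiated cells and 5 in ES cells, beside 8.79% and 8.85% of all genes. In either comparison 0 fell, beside 10.1% and 10.4% of all genes. Because the region was drawn from these values, the counts are not read against those shares. Zfp985, below the level of 6, differed by 0.99 (95% interval 0.50 to 1.48, adjusted p = 0.00258) in dedifferentiated cells, just under the minimum size, and by 1.09 (95% interval 0.61 to 1.58, adjusted p = 0.00128) in ES cells. Zfp982 differed by -0.05 and 0.08, and Zfp933 by -0.44 and -0.57; neither was called. The start window of Zfp982 was 45.15% to 47.21% identical to those of the first 4 genes and of Zfp933, and holds 16 CpG dinucleotides and, apart from each other, 1 GGGCGG and 1 CCAAT. The start windows of 4 of these genes are near copies, and if their transcripts are alike too, a probe set of one could pick up transcripts of another. No transcript or probe sequences were compared, so this was not tested. Without the region, the count of measured Zfp genes that rose went from 42 to 38 in dedifferentiated cells and from 44 to 39 in ES cells. No share is given for these reduced counts, so nothing about the family is read from them.

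**Figure D3:**
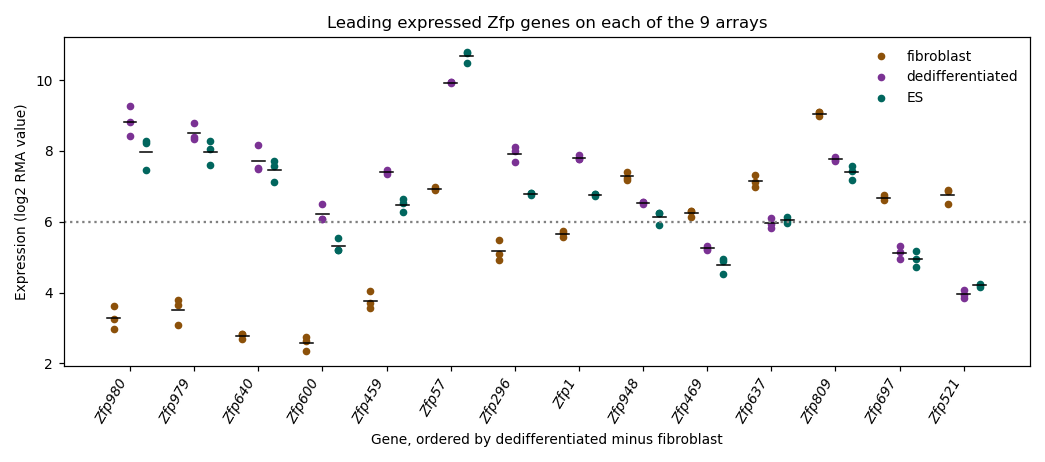
Log2 level of leading expressed Zfp genes on each of the 9 arrays (points), with the mean of each group as a bar and the level of 6 as a dotted line; genes are ordered by dedifferentiated minus fibroblast. From Zfp980 to Zfp1 the fibroblast arrays lie below both pluripotent groups, and from Zfp948 to Zfp521 they lie above them.

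Steep rises were also found elsewhere. Zfp640, whose identifier was not matched to a position, read 2.82, 2.82 and 2.69 on the fibroblast arrays, 8.16, 7.52 and 7.48 on the dedifferentiated arrays and 7.11, 7.71 and 7.58 on the ES arrays. Fibroblasts stood alone at the bottom, and the pluripotent groups overlapped. The differences were 4.94 (95% interval 4.53 to 5.36, adjusted p = 1.10e-09) and 4.69 (95% interval 4.28 to 5.10, adjusted p = 1.62e-09), and its 3 probe sets gave 4.31 to 5.10 and 3.37 to 4.69. Dedifferentiated minus ES was 0.25 in the probe set used and 0.94 and 1.08 in the others. Zfp459 (chr13:67405033-67443302), of the cluster on chromosome 13, read 3.56, 3.70 and 4.04 (fibroblasts), 7.40, 7.34 and 7.45 (dedifferentiated) and 6.28, 6.52 and 6.65 (ES), without overlap. It rose by 3.63 (95% interval 3.35 to 3.91, adjusted p = 6.15e-10) in dedifferentiated cells and by 2.72 (95% interval 2.43 to 3.00, adjusted p = 6.88e-09) in ES cells.

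Zfp57, a KRAB protein that keeps DNA methylation on imprinted regions, was the brightest Zfp gene of the ES cells. It read 6.89, 6.94 and 6.98 on the fibroblast arrays, 9.93, 9.93 and 9.93 on the dedifferentiated arrays and 10.48, 10.79 and 10.76 on the ES arrays, so all 3 groups were apart. Its rises were 3.00 (95% interval 2.80 to 3.19, adjusted p = 1.50e-10) and 3.74 (95% interval 3.55 to 3.94, adjusted p = 2.59e-11). Dedifferentiated minus ES was -0.75 (95% interval -0.94 to -0.55, adjusted p = 1.88e-04), past the p threshold but under the minimum size. Zfp445, which also guards imprints, was not called: it read 8.14, 8.25 and 8.26 (fibroblasts), 8.48, 8.41 and 8.48 (dedifferentiated) and 7.93, 8.05 and 8.36 (ES), with differences from fibroblasts of 0.24 and -0.10. In ES cells its arrays overlapped those of fibroblasts.

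Zfp568, a KRAB repressor of a placental Igf2 promoter, read 6.86, 6.73 and 6.64 on the fibroblast arrays, 9.55, 9.40 and 9.40 on the dedifferentiated arrays and 8.88, 9.01 and 9.10 on the ES arrays. The 3 groups did not overlap, with dedifferentiated cells highest. It rose by 2.71 (95% interval 2.51 to 2.90, adjusted p = 3.76e-10) and 2.25 (95% interval 2.05 to 2.45, adjusted p = 1.63e-09). Zfp462, a chromatin protein that restrains differentiation genes in ES cells, read 6.63, 6.45 and 6.75 (fibroblasts), 8.40, 8.40 and 8.57 (dedifferentiated) and 8.79, 8.61 and 8.67 (ES). Its rises were 1.85 (95% interval 1.64 to 2.06, adjusted p = 1.65e-08) and 2.08 (95% interval 1.87 to 2.30, adjusted p = 5.69e-09). Zfp217, a regulator of ES cell self-renewal, read 6.70, 6.62 and 6.40 (fibroblasts), 7.65, 7.68 and 7.82 (dedifferentiated) and 8.20, 7.89 and 8.38 (ES), with ES arrays highest, and rose by 1.14 and 1.59. Zfp706, which ES cells need to leave self-renewal, rose by 1.29 and 1.103 from 9.20, 8.82 and 8.94 in fibroblasts to 10.25, 10.27 and 10.30 in dedifferentiated cells and 10.01, 10.21 and 10.04 in ES cells; its other probe set gave 0.93 and 0.70, under the minimum size.

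The differences of the other expressed members that rose are given with the dedifferentiated value first and the ES value second. Above 2 log2 units in at least 1 comparison stood Zfp518a (2.53 and 1.89), Zfp553 (2.53 and 2.25), Zfp961 (2.22 and 2.11), Zfp710 (2.10 and 2.20), Zfp141 (2.02 and 2.09) and Zfp229 (1.68 and 2.12). Smaller rises in both comparisons were those of Zfp599 (1.57 and 1.43), Zfp941 (1.30 and 1.61), Zfp280b (1.37 and 1.56), Zfp667 (1.17 and 1.41), Zfp781 (1.45 and 1.08), Zfp292 (1.39 and 1.097), Zfp951 (1.35 and 1.01), Zfp532 (1.39 and 1.00) and Zfp869 (1.02 and 1.05). In dedifferentiated cells a further set was called where the ES value missed the minimum size: Zfp105 (1.76 and 0.77), Zfp638 (1.30 and 0.43), Zfp280d (1.20 and 0.35), Zfp518b (1.12 and 0.67) and Zfp646 (1.07 and 0.66). In ES cells the called set included Zfp692 (0.65 and 1.36), Zfp277 (0.89 and 1.25), Zfp512 (0.69 and 1.24), Zfp263 (0.74 and 1.20), Zfp106 (0.98 and 1.20), Zfp655 (0.97 and 1.19), Zfp958 (0.99 and 1.18), Zfp318 (0.96 and 1.13) and Zfp516 (0.54 and 1.13), whose dedifferentiated values were positive and under the minimum size. Of both sets, the test of dedifferentiated against ES cells called none. A call in one comparison alone thus does not show that these groups differed by the minimum size. It does not show that they were alike either: Zfp105 differed by 0.995, just under that size.

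Falls were few, and Zfp521 led them. This cofactor of progenitor cells, known to hold back fat cell formation in mesenchymal cells, read 6.90, 6.50 and 6.85 on the fibroblast arrays, 3.85, 4.07 and 3.94 on the dedifferentiated arrays and 4.22, 4.16 and 4.24 on the ES arrays. The fibroblast arrays lay above every other array. The gene, at chr18:13687013-13972749, fell by 2.80 log2 units in dedifferentiated cells (95% interval -3.04 to -2.56, adjusted p = 1.40e-09) and by 2.54 in ES cells (-2.79 to -2.30, adjusted p = 2.97e-09). Zfp697 read 6.62, 6.74 and 6.69 (fibroblasts), 4.94, 5.13 and 5.31 (dedifferentiated) and 5.17, 4.93 and 4.73 (ES), and its differences were -1.56 (95% interval -1.82 to -1.29, adjusted p = 4.95e-07) and -1.74 (95% interval -2.004 to -1.47, adjusted p = 1.84e-07).

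Zfp809, a KRAB protein that silences retroviruses by binding their primer binding site, moved against the majority. It read 9.09, 8.98 and 9.10 on the fibroblast arrays, 7.82, 7.75 and 7.71 on the dedifferentiated arrays and 7.17, 7.58 and 7.43 on the ES arrays. Fibroblasts were highest and ES cells lowest, with no overlap between any pair of groups, although the gene stayed well above the level of 6 everywhere. The differences were -1.30 (95% interval -1.52 to -1.07, adjusted p = 5.79e-07) and -1.66 (95% interval -1.89 to -1.44, adjusted p = 6.34e-08). Zfp637 read 7.32, 6.99 and 7.13 (fibroblasts), 5.81, 5.95 and 6.10 (dedifferentiated) and 6.03, 6.14 and 5.96 (ES), with differences of -1.19 and -1.10, both called.

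Further falls were called in ES cells. Zfp469, whose human counterpart is a gene of brittle corneas, read 6.13, 6.32 and 6.29 on the fibroblast arrays, 5.24, 5.20 and 5.31 on the dedifferentiated arrays and 4.95, 4.88 and 4.52 on the ES arrays. It differed by -1.46 (95% interval -1.70 to -1.22, adjusted p = 3.93e-07) in ES cells, while in dedifferentiated cells the difference missed the minimum size before rounding (95% interval -1.24 to -0.75). Zfp948 read 7.25, 7.18 and 7.41 (fibroblasts), 6.56, 6.49 and 6.56 (dedifferentiated) and 5.90, 6.23 and 6.25 (ES), with differences of -0.74 and -1.15, the second of them called. Zfp771 differed by -0.79 and -1.04 and Zfp651 by -0.75 and -1.001, and for both only the ES value was called. Below the level of 6, Zfp9 (-1.86 and -1.67) and Zfp52 (-1.19 and -1.15) fell in both comparisons.

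Differences between dedifferentiated and ES cells were small over much of the family, as over other genes at the level. The difference lay between -0.86 and 1.14 log2 units for all 152 expressed members. Its quartiles were -0.16 and 0.34, beside -0.20 and 0.25 over the 9454 other genes at the level. It was within 0.5 for 129 members, and its 95% interval lay within 1 log2 unit on either side for 142. The arrays of these groups did not overlap for 78 of the 152. No share over other genes is given for these 3 counts. The median SD between arrays was 0.11 on the fibroblast arrays, 0.09 on the dedifferentiated arrays and 0.16 on the ES arrays. Zfp296, an ES cell protein that binds Klf4 and pericentromeric heterochromatin, was called higher in dedifferentiated cells: it read 4.92, 5.49 and 5.08 on the fibroblast arrays, 8.10, 7.99 and 7.68 on the dedifferentiated arrays and 6.80, 6.80 and 6.75 on the ES arrays. The groups did not overlap, and ES cells stood between the others. Dedifferentiated minus ES was 1.14 (95% interval 0.82 to 1.45, adjusted p = 2.55e-04), beside rises over fibroblasts of 2.76 and 1.62.

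Zfp1 read 5.67, 5.73 and 5.56 on the fibroblast arrays, 7.77, 7.88 and 7.77 on the dedifferentiated arrays and 6.78, 6.79 and 6.72 on the ES arrays, in the same order of groups and again without overlap. Dedifferentiated minus ES was 1.04 (95% interval 0.88 to 1.21, adjusted p = 8.17e-06). Zfp819, a KRAB gene of ES and germ cells that missed the level by a small margin, read 3.86, 3.80 and 3.75 (fibroblasts), 5.88, 6.10 and 5.99 (dedifferentiated) and 4.60, 4.62 and 4.53 (ES). It was the third gene called higher in dedifferentiated than in ES cells, by 1.41 (95% interval 1.23 to 1.58, adjusted p = 1.81e-06). Zfp105 came next with 6.73, 6.92 and 7.00 in ES cells against 7.97, 7.89 and 7.77 in dedifferentiated cells, a difference of 0.995 that missed the minimum size. At the other end Zfp688, with 5.86, 6.01 and 5.85 in dedifferentiated cells and 6.91, 6.57 and 6.82 in ES cells, differed by -0.86 (95% interval -1.09 to -0.62, adjusted p = 2.42e-04), followed by Zfp57 (-0.75), Zfp692 (-0.71) and Zfp346 (-0.70). Leaving out dedifferentiated replicate 3, ES replicate 2 or ES replicate 3 raised the count of genes called higher in dedifferentiated cells from 3 to 5 each time.

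**Figure D4:**
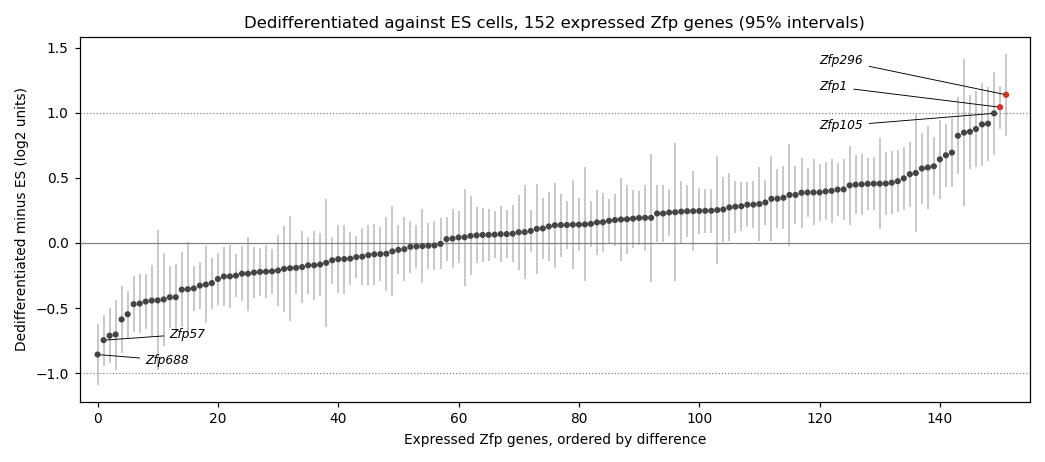
Dedifferentiated minus ES difference in log2 units for each of the 152 expressed Zfp genes in rank order, with 95% limma intervals as lines; red points were called and dotted lines mark 1 log2 unit either way. Zfp296 and Zfp1 are the called points at the right, and no point at the left reaches -1.

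Among members with well known roles, several were not called. Zfp36 (tristetraprolin), which speeds the decay of AU-rich mRNAs through a CCCH finger, read 7.76, 7.60 and 7.74 on the fibroblast arrays, 7.16, 7.08 and 7.18 on the dedifferentiated arrays and 6.91, 7.32 and 7.32 on the ES arrays, and its differences of -0.56 and -0.51 were under the minimum size. Zfp598, a ubiquitin ligase that senses collided ribosomes, differed by 0.55 and 0.67. Zfp207, which helps chromosomes bind the spindle, was bright in every group, at 9.14, 8.79 and 9.09 (fibroblasts), 9.52, 9.27 and 9.33 (dedifferentiated) and 8.57, 8.91 and 8.92 (ES), and differed by 0.36 and -0.21. Zfp219, a partner of Sox9, differed by 0.66 and 0.36 and Zfp64 by 0.70 and 0.70; none of these was called. Zfp106 read 8.40, 8.29 and 8.34 (fibroblasts), 9.38, 9.26 and 9.32 (dedifferentiated) and 9.40, 9.56 and 9.66 (ES) and was called in ES cells, 1.20 (95% interval 1.02 to 1.39, adjusted p = 1.99e-07).

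Below the level of 6 in every group were the fat cell precursor factor Zfp423, the early embryo gene Zfp352, Zfp703, Zfp708 and the X-linked Zfp711. Zfp423 read 5.49, 5.57 and 5.30 on the fibroblast arrays, 5.84, 5.94 and 5.88 on the dedifferentiated arrays and 5.84, 5.80 and 5.83 on the ES arrays, with differences of 0.44 and 0.37. Zfp352 was at 3.97, 3.68 and 3.70 on average, and Zfp708, a KRAB repressor of retroelements, at 3.77, 4.11 and 4.15. Zfp703 differed by -0.04 and 0.03 and Zfp711 by 0.49 and 0.02, and none of the 5 was called. Of the X-linked members at the level, Zfp275 differed by -0.80 and -0.45 and Zfp280c was not called either.

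Neighbouring members were looked for along the chromosomes. Expressed Zfp genes with at most 100 kb between one and the next formed 13 runs with 41 genes, and in 2 of the runs at least 2 genes rose in the same comparison. Of 28 pairs of expressed Zfp genes that follow each other in a run, 2 pairs (7.14%) rose together in dedifferentiated cells, beside 3.51% of 6618 pairs among the other genes at the level, and 0 did in ES cells, beside 3.73%. Of the 134 such pairs of all measured Zfp genes, 1 pair (0.746%) rose together in each comparison, beside 1.28% and 1.41% of 16933 pairs of all genes. One of the 2 pairs, Zfp568 and Zfp566, has Zfp14 and Zfp82 between its genes, which stayed below the level and were not called, and Zfp566 and Zfp729b reached the level in the pluripotent groups and not in fibroblasts. Zfp459 and Zfp940, called in the 2 runs, likewise reached the level outside fibroblasts only. Among the called genes of these runs, only Zfp729a and Zfp568 stood at the level in every group. The count of runs thus rests in part on how members were chosen, and no share of runs over other genes is given. Nothing is read from so few pairs and runs. With 500 kb allowed between neighbours 5 runs qualified, and among the 43 runs of all measured Zfp genes 4 did.

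The first run lies on chromosome 13 between Zfp459 and Zfp738 (chr13:67405033-67683512), in a tandem KRAB cluster known from regulators of sex-limited liver genes. Zfp459 and Zfp729b rose in both comparisons and Zfp729a in dedifferentiated cells, while Zfp874a (0.00 and 0.08), Zfp87 (0.46 and 0.18) and Zfp738 (0.55 and 0.51) were not called. Zfp729b read 5.59, 5.76 and 5.47 on the fibroblast arrays, 7.03, 7.11 and 7.09 on the dedifferentiated arrays and 6.40, 6.83 and 6.84 on the ES arrays, without overlap, and rose by 1.47 and 1.08. Its neighbour Zfp729a read 7.06, 7.00 and 7.23 (fibroblasts), 8.16, 8.15 and 8.10 (dedifferentiated) and 7.90, 7.94 and 7.84 (ES), without overlap, with differences of 1.04 and 0.79. These calls lie close to the minimum size: without fibroblast replicate 2 the dedifferentiated value of Zfp729a was 0.99, and with the arrays aligned on their medians it was 0.92 and the ES value of Zfp729b 0.97. Zfp874a read 6.44, 6.39 and 6.51 (fibroblasts), 6.49, 6.43 and 6.41 (dedifferentiated) and 6.17, 6.71 and 6.70 (ES), so the strongest rise of the run, that of Zfp459, stood next to a gene that was not called (95% intervals -0.29 to 0.28 and -0.21 to 0.36), and the annotated spans of these neighbours overlap.

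The start windows of Zfp729a and Zfp738 are shown because they were 77.09% identical, the closest of the 6 pairs in this run with windows for both genes, the others being 50.42% to 55.20%, and yet only the first gene was called; capitals mark CCAAT. They lie at chr13:67637732-67638031 (minus strand) and chr13:67683463-67683762 (minus strand) of GRCm38.p6, from RefSeq. Of the other windows compared, that of Zfp459 lies inside the span of its gene, away from the outer end.
Zfp729a: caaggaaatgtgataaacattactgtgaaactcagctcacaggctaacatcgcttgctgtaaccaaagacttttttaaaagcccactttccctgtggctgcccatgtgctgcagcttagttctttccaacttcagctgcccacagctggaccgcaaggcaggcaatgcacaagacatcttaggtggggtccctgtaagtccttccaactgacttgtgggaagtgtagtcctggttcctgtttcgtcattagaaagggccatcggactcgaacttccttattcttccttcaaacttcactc
Zfp738: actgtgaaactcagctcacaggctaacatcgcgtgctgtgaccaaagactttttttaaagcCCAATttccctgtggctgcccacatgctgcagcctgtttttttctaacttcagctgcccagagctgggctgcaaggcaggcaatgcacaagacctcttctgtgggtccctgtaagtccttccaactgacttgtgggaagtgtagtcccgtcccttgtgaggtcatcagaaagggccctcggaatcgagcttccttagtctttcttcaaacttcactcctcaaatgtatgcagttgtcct

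The second run lies on chromosome 7 and goes from Zfp84 to Zfp146 (chr7:29768552-30169775) with 7 expressed members. Zfp940, Zfp568 and Zfp566 rose in dedifferentiated cells, and the first 2 also in ES cells. Zfp940 read 4.88, 4.89 and 4.90 on the fibroblast arrays, 6.05, 6.24 and 6.05 on the dedifferentiated arrays and 6.55, 6.37 and 6.40 on the ES arrays, with differences of 1.23 and 1.55 and ES cells highest. Zfp566 read 5.17, 5.05 and 5.51 (fibroblasts), 6.61, 6.67 and 6.75 (dedifferentiated) and 5.96, 5.99 and 6.06 (ES), with dedifferentiated cells highest, and differed by 1.43 and 0.76. The other members of the run were not called: Zfp84 differed by 0.13 and -0.40, Zfp790 by -0.25 and -0.13, Zfp74 by 0.34 and 0.39 and Zfp146 by -0.45 and -0.70. Over 15 pairs the start windows of 6 of these genes were 48.33% to 53.41% identical. No pair was as close as those of the 4 genes on chromosome 4. The window of Zfp790 lies inside the span of its gene, away from the outer end.

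Of the 28 pairs of expressed neighbours, 1 (3.57%) moved in opposite directions in dedifferentiated cells and 2 (7.14%) in ES cells, beside 3.99% and 4.4% of the 6618 pairs among other genes at the level. On chromosome 9 the spans of Zfp809 and Zfp599 overlap in the annotation, and while Zfp809 fell, Zfp599 read 5.37, 4.999 and 5.22 on the fibroblast arrays, 6.60, 6.84 and 6.86 on the dedifferentiated arrays and 6.25, 6.82 and 6.80 on the ES arrays. Zfp599 rose by 1.57 (95% interval 1.23 to 1.91, adjusted p = 3.85e-06) and 1.43 (95% interval 1.09 to 1.77, adjusted p = 8.46e-06). On chromosome 7 Zfp553 read 6.17, 6.14 and 6.31 (fibroblasts), 8.71, 8.66 and 8.83 (dedifferentiated) and 8.56, 8.40 and 8.40 (ES) and rose by 2.53 and 2.25, while Zfp771 next to it read 7.27, 7.35 and 7.21 (fibroblasts), 6.55, 6.47 and 6.43 (dedifferentiated) and 6.38, 6.27 and 6.07 (ES) and fell in ES cells.

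**Figure D5:**
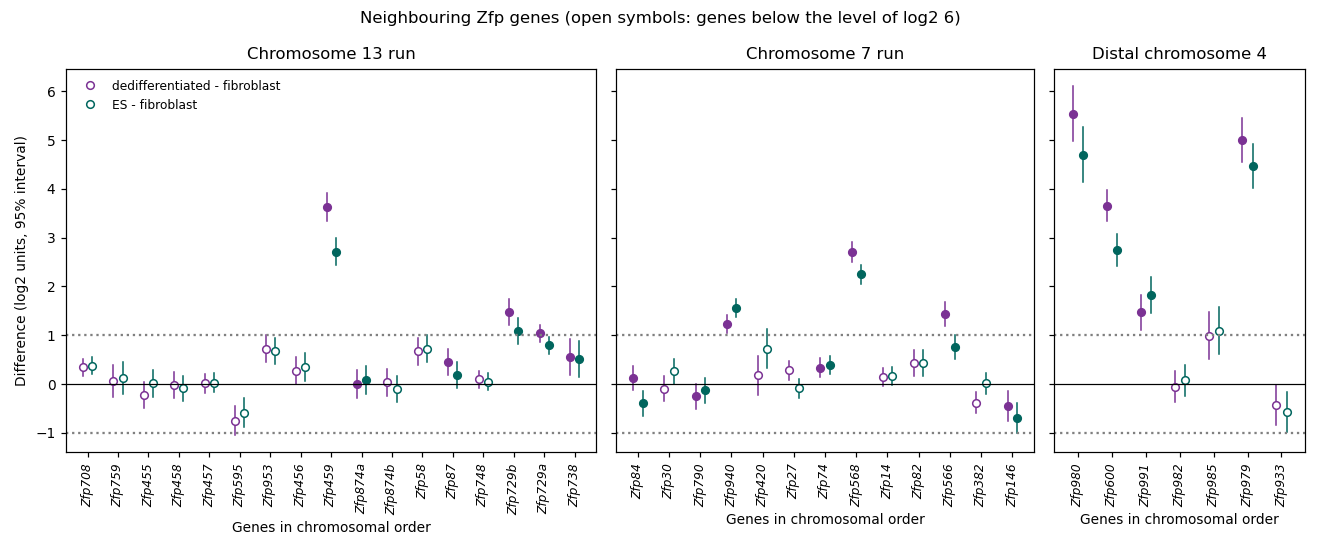
Difference from fibroblasts in log2 units with 95% limma intervals (lines) for measured Zfp genes in chromosomal order around the runs on chromosomes 13 and 7 and on distal chromosome 4; filled symbols are expressed members, open ones stay below the level of 6, and dotted lines mark 1 log2 unit. Zfp459 and Zfp568 stand far above their neighbours, and on chromosome 4 Zfp982 and Zfp933 stand near or below 0 among raised genes.

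KRAB corepressors and other heterochromatin and DNA methylation genes were followed in a list of 31 measured genes. In dedifferentiated cells 15 (48.4%) rose and 2 (6.45%) fell, beside 8.79% and 10.1% of all genes. In ES cells 14 (45.2%) rose and 2 (6.45%) fell, beside 8.85% and 10.4%. All but Atf7ip2 reached the level of 6 in some group. Among the 9454 other genes at the level, 16.6% rose and 18.8% fell in dedifferentiated cells, and 16.6% and 19.3% in ES cells. The corepressor Trim28 read 9.35, 9.29 and 9.45 on the fibroblast arrays, 11.46, 11.46 and 11.48 on the dedifferentiated arrays and 11.08, 11.10 and 11.20 on the ES arrays. The groups did not overlap, and the gene rose by 2.10 and 1.76 log2 units. Setdb1 read 7.15, 6.82 and 7.15 (fibroblasts), 8.47, 8.39 and 8.37 (dedifferentiated) and 8.39, 8.52 and 8.62 (ES) and rose by 1.37 and 1.47. The heterochromatin protein Cbx1 rose by 1.60 and 1.21, the histone methyltransferase Suv39h2 by 2.54 and 2.02, the demethylase Kdm1a by 1.69 and 1.83, and Trim24 and Trim33, relatives of Trim28, by 2.08 and 1.99 and by 1.99 and 1.44.

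Also called in both comparisons were the rises of Uhrf1 (1.70 and 1.60), Smarcad1 (1.62 and 1.06), Morc3 (1.23 and 1.21), Atrx (1.20 and 1.19) and Atf7ip2 (1.17 and 1.33). Among DNA methylation genes the cofactor Dnmt3l rose by 5.28 and 5.56 and the methyltransferase Dnmt3b by 4.85 and 3.84. Dnmt3a rose by 2.33 in dedifferentiated cells, with an ES value of 0.65, and both Dnmt3a (1.68) and Dnmt3b (1.01) were called higher in dedifferentiated than in ES cells. The 2 genes that fell were the nucleosome remodeller Chd3 (-2.14 and -1.97) and the methyl-CpG reader Mbd1 (-1.93 and -2.04). Cbx3, Cbx5, Hdac1, Hdac2 and Dnmt1 were not called, with dedifferentiated values of 0.51, 0.40, 0.67, 0.10 and 0.67.

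Other zinc finger families were counted in the same way as a comparison. Of 25 Klf and Sp genes 6 rose and 0 fell in dedifferentiated cells, and 7 rose and 0 fell in ES cells. Of 41 Zbtb genes 2 rose and 3 fell, and 4 rose and 6 fell. Of 12 Zscan genes 2 rose and 0 fell in each comparison, and of 11 Zkscan genes 1 rose and 0 fell in each. Over all genes the shares were 8.79% and 10.1% in dedifferentiated cells and 8.85% and 10.4% in ES cells; the difference between any of these families and the Zfp genes was not tested.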

How the data were processed

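RNA of 9 samples was hybridised to Affymetrix Mouse Gene 1.0 ST arrays (chip named in the labels). The authors deposited log2 expression values made with RMA in Affymetrix Expression Console 1.1, per the submitters' processing notes; RMA as a method equalises the arrays, so a general shift of all transcripts would not be seen. The values carry no detection call, and no scan or slide batch is given in the sources used here. Every column with values was matched to a sample, and 0 were left without one.

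Probe sets were named through the platform annotation: 21789 of 35557 had 1 symbol, 1621 had several and were not used, and 12147 were not listed. One probe set a gene, that with the highest mean, gave 19938 genes. limma 3.58.1 in R 4.3.3 fitted the 3 groups together, with eBayes and Benjamini-Hochberg adjustment over all genes; the procedure was tested on simulated data. A call needed an adjusted p below 0.05 and 1 log2 unit. Positions come from the RefSeq gene table of GRCm38.p6, matched for 338 of 339 Zfp genes through gene identifiers; windows were aligned with Biopython 1.88.

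Genes named are the 6 largest rises and falls per comparison among calls without overlap, 22 genes with known roles (20 measured, 14 at the level), the genes of runs that shifted together, the 3 on either side of the level and the called genes of the KRAB list; others named were chosen after their values were seen. The members and lists were chosen with earlier results of these data known. Another normalization, filters, variance models, call rules, probe set rules, a replicate block, neighbour distances and leaving out each array were tried. Replicate numbers were checked for pairing: deviations of same-numbered arrays correlated between -0.204 and 0.25 over 9 pairs, so the numbers were not taken to pair samples.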

Additional observations from a re-analysis of the deposited data

Results flagged for a closer look

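Probe sets that the platform annotation gives several symbols, at least 1 of them a Zfp gene, were outside the comparisons above. Of 40 such probe sets, 19 were called higher and 0 lower in dedifferentiated cells against fibroblasts, with differences from -0.31 to 5.54 log2 units and a median of 0.72 (limma, adjusted over all 35557 probe sets). In ES cells against fibroblasts 17 were called higher and 0 lower, with differences from -0.64 to 5.33 and a median of 0.61. Of the 1581 other probe sets with several symbols, 14.04% were called higher and 3.54% lower in dedifferentiated cells, and 9.36% and 3.98% in ES cells. Among the 40, the 6 that carry a gene of distal chromosome 4 were called higher in both comparisons, by 1.92 to 5.20 and by 2.03 to 4.60. None of the 40 was called between dedifferentiated and ES cells. These probe sets cannot be given to 1 gene, and 26 Zfp symbols occur in them alone. Some of them read the same or nearly the same on all 9 arrays. Those of distal chromosome 4 carry 5 to 13 symbols each. They are therefore not separate measurements, and the counts can hold 1 signal more than once.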

How the results depend on the processing

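With no minimum size, 130 measured and 88 expressed Zfp genes were higher and 38 and 16 lower in dedifferentiated cells than in fibroblasts. In ES cells 127 and 84 were higher and 50 and 21 lower than in fibroblasts. In dedifferentiated against ES cells 57 and 43 were higher and 24 and 16 lower. This looser rule admits small differences by construction, and no share of all genes that pass it is given beside these counts. Asking every group mean to reach 6, which admits fewer genes, left 17 rises and 1 fall, 17 rises and 4 falls, and 0 rises; a level of 7 left 2 and 5 falls against fibroblasts. Leaving out 1 array in turn gave 3 to 5 measured and 2 to 4 expressed genes higher in dedifferentiated than in ES cells. Runs that shifted together numbered 4 with no minimum size, 5 at 500 kb (a distance added after seeing the data) and 4 over all measured Zfp genes. The replicate block changed no count: 42, 44 and 3 measured Zfp genes were higher. Of 729 recomputed values of called named genes 723 kept their call, 0 reversed and 6 missed the minimum size: Zfp1 in ES cells (0.99) and Zfp729b in ES cells (0.97) with median centring, Zfp729b also with a second quantile normalization (0.99), and Zfp729a in dedifferentiated cells with both (0.92 and 0.98) and without fibroblast replicate 2 (0.99); the cause was not tested.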
